A study of Plutella xylostella with 6 samples.

Results

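The enzymes that carry single carbon units on folate were examined in whole second-instar larvae of the diamondback moth P. xylostella after 12 hr of DMNT, a homoterpene volatile of plants. The set holds every gene whose description contains serine hydroxymethyltransferase (SHMT), thymidylate synthase, dihydrofolate reductase or tetrahydrofolate (THF). These are 14 of the 21946 genes and assembled loci in the table. Among them, 5 are described as cytosolic or cytoplasmic and 1 as mitochondrial, and the description gives no compartment for the other 8. RNA was sequenced from 3 control libraries and 3 DMNT libraries. Eggs were bought from a supplier and larvae were reared on commercial forage; in the feeding tests of the study the control forage carried paraffin oil, the solvent of DMNT, and no source states whether this holds for the RNA samples. Nor is the strain or the number of larvae per library stated. The paper chose a DMNT dose for its further studies but does not repeat it for the RNA samples. A p-value here thus speaks of the variation among these samples alone, which may be technical.

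Folate is a coenzyme that moves carbon units between serine, glycine, nucleotides and methionine. SHMT takes a carbon from serine onto THF, leaving glycine, and C-1-tetrahydrofolate synthase and methylenetetrahydrofolate dehydrogenase (MTHFD) interconvert the oxidation states in which the carbon is held. The carbon is then spent on purine rings, on the methyl group of thymidylate, or on methionine. In animals the pathway runs in the cytosol and in mitochondria in parallel. Insects take folate from food or from microbes.

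Control libraries held 49553028 to 56381123 counts in total (median 53402714), and those from DMNT larvae 39853422 to 54671573 (median 47221345). Summed FPKM (fragments scaled by exon length and by mapped reads) of midgut markers was 24673 to 27632 in control and 26617 to 28331 in DMNT libraries. Muscle, nerve and silk gland markers spanned 24287 to 32327, 35.5 to 37.3 and 1652 to 2189 in control libraries against 30200 to 31160, 32.9 to 35.5 and 1421 to 2400 with DMNT. Fat body markers spanned 1802 to 3874 against 995 to 4839, with DMNT replicate 3 lowest, and cuticle markers 14194 to 20242 against 9347 to 17450, with DMNT replicate 1 lowest. In whole larvae, fewer cells of a type and less RNA per cell cannot be told apart.

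Of the 14 genes, 13 averaged 0.5 FPKM or more and were tested. The remaining one, a 5-formyltetrahydrofolate cyclo-ligase-like gene (LOC105382613), had 0 counts in all 6 libraries, where a count of 0 allows up to 3 counts. Compared per length in the control libraries, cytosolic SHMT (LOC105381763) was the most abundant, at 71.9 ± 10.5 FPKM (SD, n = 3), and its lowest control library lay above the highest of any other folate gene. A methenyltetrahydrofolate synthase (MTHFS) domain protein (LOC105387032) followed at 37.1 FPKM, then both genes described as cytosolic 10-formyltetrahydrofolate dehydrogenase-like, LOC105394963 at 35.8 and LOC105393550 at 28.6 FPKM. The MTHFS domain protein is annotated with no enzyme number and no KEGG entry, and is counted among the folate enzymes by its description alone. Dihydrofolate reductase-like (LOC105381301) was at 23.5 ± 0.599 and cytoplasmic C-1-tetrahydrofolate synthase (LOC105382326) at 20.3 FPKM. At the lower end was C-1-tetrahydrofolate synthase-like (LOC105390540) at 4.12 FPKM. Neighbours in this order, over the 12 tested genes described one by one here, overlapped over the control libraries except at 3 steps, from SHMT to the MTHFS domain protein, from dihydrofolate reductase to LOC105382326, and from a thymidylate synthase-like gene (LOC105387191) to LOC105390540. In the DMNT libraries SHMT was at 31.6 ± 9.42 FPKM, behind the MTHFS domain protein at 40.03.

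**Figure D1:**
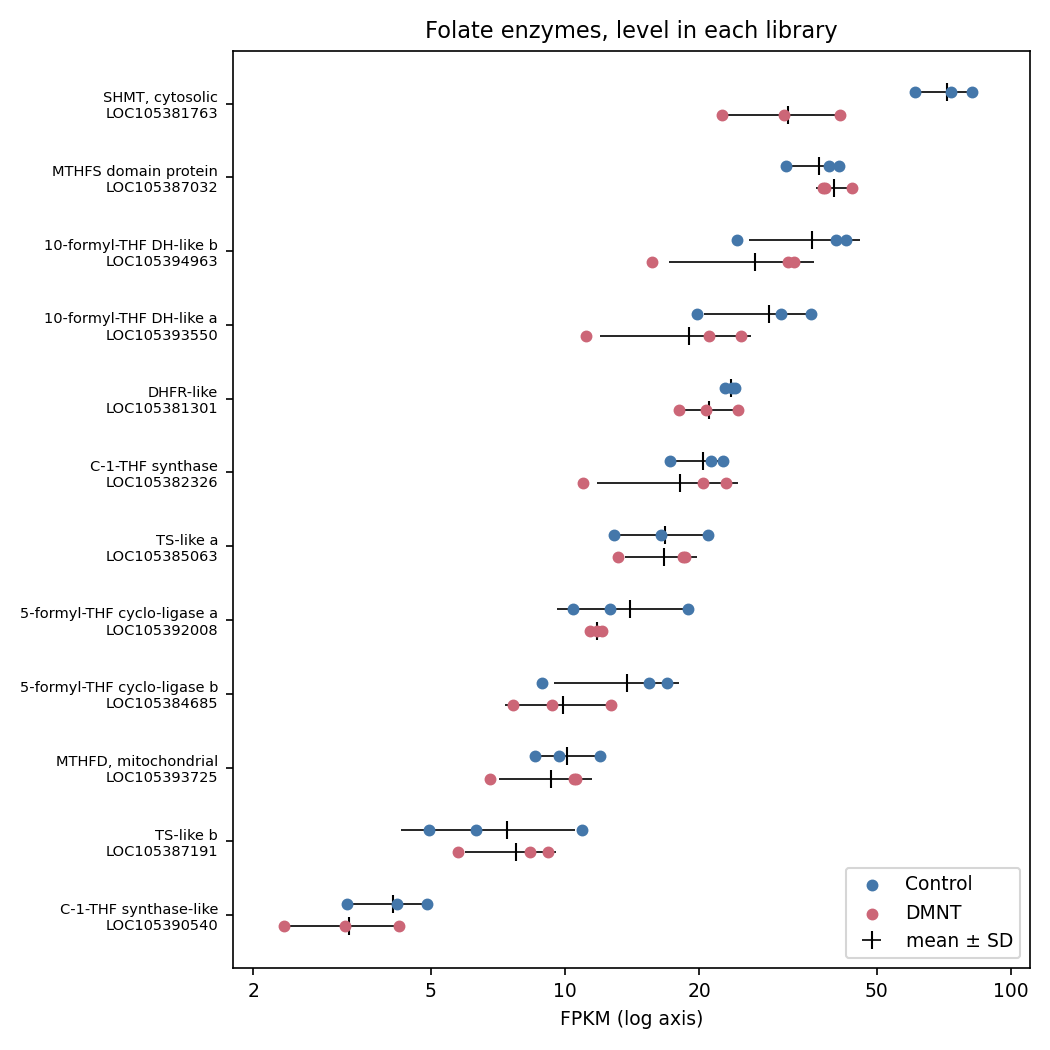
Level of 12 expressed folate enzymes in FPKM (log axis), 1 point per library, control in blue and DMNT in red, with the mean and SD of 3 libraries. SHMT is the only gene whose control and DMNT points do not overlap, at 60.7 to 81.7 against 22.5 to 41.3 FPKM.

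After DMNT, SHMT was the only folate enzyme to change past the thresholds of the study, at which the log2 fold change is 1 or more in either direction and p before adjustment is under 0.05. It read 120.3, 127.8 and 105.6 CPM (counts scaled by TMM to a common library size) in control replicates 1 to 3 and 38.2, 51.9 and 71.9 CPM in DMNT replicates 1 to 3. All DMNT libraries lay under all control libraries, with DMNT replicate 1 the lowest. The fall of SHMT came to a log2 fold change of -1.13 with standard error 0.23 (95% interval -1.65 to -0.60, n = 3 each, Benjamini-Hochberg adjusted p = 0.9999 over 17709 genes by edgeR's quasi-likelihood fit). The adjusted p was 0.00805 with DESeq2, the only fit run in which it was under 0.05. It was 0.998 with limma on log2(FPKM + 0.1), 0.988 with limma on log2(FPKM + 1) and 0.911 with edgeR and a replicate block. In edgeR fits that left out 1 library it was 0.264 or more. Without DMNT replicate 1 the log2 fold change was -0.93, under the fold threshold. The table has SHMT once, with 5 transcripts merged, and no gene is described as a mitochondrial SHMT; the gene ontology terms of LOC105381763 include the mitochondrion although the description says cytosolic. Cuticle markers were also lowest in DMNT replicate 1, and 2 of the 92 tested were called lower, as were 3 of 100 midgut markers and 0 of the other marker lists, beside 0.503% of all genes. The part of these markers in the result was not tested.

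Counted by direction, 1 of the 13 tested enzymes was lower and 0 were higher past these thresholds, where 0.503% of all genes tested were lower and 0.367% higher. By p alone, before adjustment, the same enzyme was the 1 under 0.05, where 3.43% of all genes were and 1.68% were lower, and after Benjamini-Hochberg adjustment in edgeR 0 enzymes were, where 0.0113% of all genes were. The count by p alone was 3 without control replicate 3 (SHMT, LOC105393550 and LOC105384685, beside 4.61% of all genes in that fit). It was 2 without DMNT replicate 2 (SHMT and LOC105393550, beside 4.08%). The control and DMNT libraries did not overlap for 1 of the 13, against 8.37% of all genes. By sign alone 9 log2 fold changes were below 0 and 4 above, with a median of -0.12 beside -0.0032 over all genes, of which 50.6% were below 0. Leaving out 1 library moved this median between -0.22 (without DMNT replicate 2) and -0.08 (without control replicate 2). For 9 of the 13 enzymes the 95% interval lay wholly between a halving and a doubling, that is within 1 on the log2 scale on either side. The interval went further for SHMT, for both 10-formyltetrahydrofolate dehydrogenase-like genes and for a cyclo-ligase (LOC105384685).

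**Figure D2:**
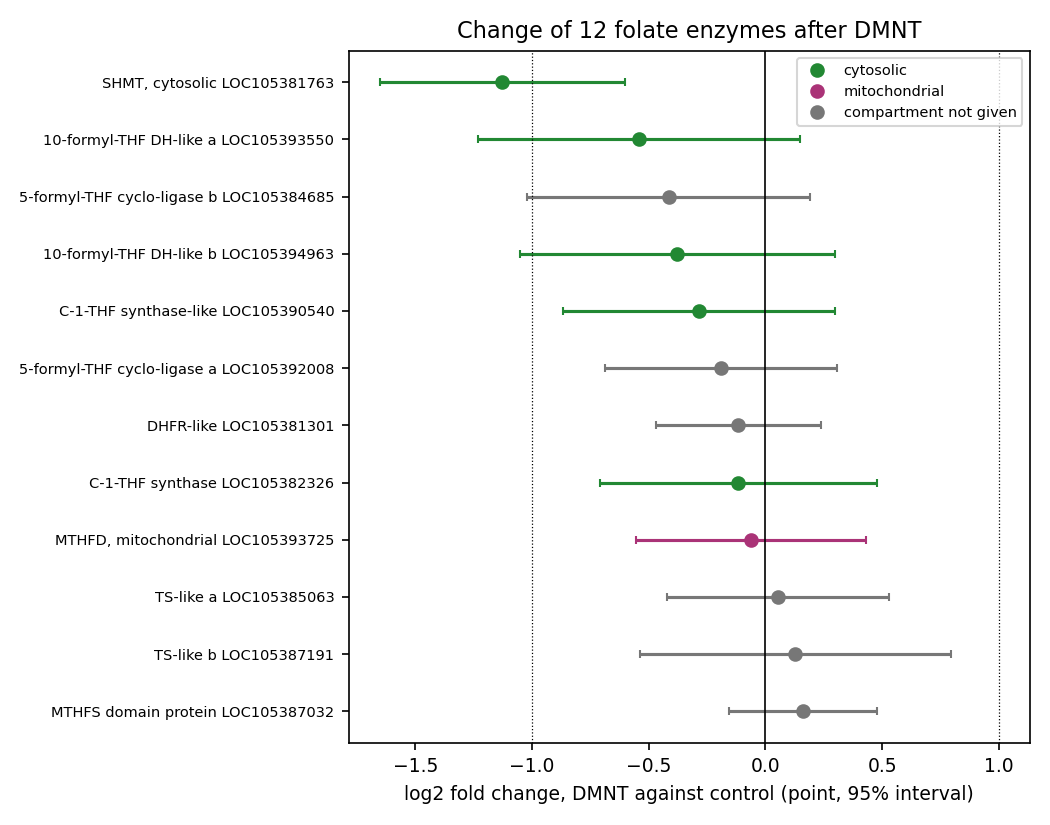
Log2 fold change of 12 tested folate enzymes, DMNT against control, with its 95% interval from edgeR's quasi-likelihood fit (3 libraries per group); dotted lines mark a log2 fold change of 1 in either direction. The interval of SHMT, -1.65 to -0.60, is the only one shown that does not reach 0.

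SHMT supplied 24.2% to 26.3% of the summed FPKM of the folate enzymes in control (median 25.2%) and 10.6% to 20.8% after DMNT (median 12.7%). The share was nearly the same in every control library, and no DMNT library reached it. Set against the other 12 tested enzymes, the FPKM of SHMT was 0.318, 0.336 and 0.358 of their sum in control replicates 1 to 3 and 0.119, 0.145 and 0.263 in DMNT replicates 1 to 3. This log2 ratio differed by -1.03 between the groups (exact two-sided permutation test, n = 3 each, p = 0.1, the smallest p that 3 against 3 allows). The summed FPKM of all of them was 303.2, 324.6 and 230.6 in control and 212.0, 245.1 and 198.7 in DMNT libraries. These groups overlapped, and the difference of -67.5 FPKM did not pass the exact two-sided permutation test (n = 3 each, p = 0.2).

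The other enzymes described as cytosolic were read in the same libraries. Cytoplasmic C-1-tetrahydrofolate synthase (LOC105382326), which in animals joins formate to THF and interconverts the formyl, methenyl and methylene forms, read 66.6, 67.5 and 57.2 CPM in control and 35.5, 73.4 and 67.7 CPM in DMNT libraries. Only DMNT replicate 1 lay below the control libraries, and the other DMNT libraries were above the highest control. Its log2 fold change was -0.12 (standard error 0.26, 95% interval -0.71 to 0.48), and 0.15 without that library. The C-1-tetrahydrofolate synthase-like gene LOC105390540 read 6.71, 5.497 and 4.71 CPM in control and 4.55, 5.92 and 3.42 CPM in DMNT libraries, which overlapped. The log2 fold change of this gene was -0.28 (standard error 0.25).

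Cytosolic 10-formyltetrahydrofolate dehydrogenase releases the carbon as carbon dioxide and returns free THF. LOC105393550 read 113.8, 93.1 and 66.8 CPM in control and 69.4, 80.9 and 37.9 CPM in DMNT libraries. Replicate 3 was the lowest of each group and the groups overlapped. Its log2 fold change was -0.54 (standard error 0.30, 95% interval -1.23 to 0.15), after SHMT the most negative of the set. LOC105394963, with the same description, read 120.6, 109.1 and 72.8 CPM in control and 92.2, 93.6 and 47.0 CPM in DMNT libraries, again lowest in replicate 3 of each group, and its log2 fold change was -0.38 (standard error 0.29). Neither passed the fold threshold or, in this fit, the p threshold. LOC105393550 passed the threshold for p but not for fold without control replicate 3 (-0.72) and without DMNT replicate 2 (-0.76). Fat body markers were lowest in DMNT replicate 3 but not in control replicate 3, where they summed to 2507 FPKM, and their part in these values was not tested.

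The single member described as mitochondrial, the bifunctional MTHFD and cyclohydrolase LOC105393725, turns methylene-THF into formyl-THF. It read 20.4, 23.9 and 19.0 CPM in control and 14.7, 22.6 and 23.3 CPM in DMNT libraries. DMNT replicate 1 was the lowest and the others lay within the control range, so that the groups overlapped. Its log2 fold change was -0.06 (standard error 0.21, 95% interval -0.56 to 0.43).

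The compartments were compared within each library, where the scaling between libraries drops out. Cytosolic SHMT was 7.53, 6.82 and 7.09 times as abundant as mitochondrial MTHFD by FPKM in control replicates 1 to 3 and 3.32, 2.92 and 3.93 times in DMNT replicates 1 to 3. The ratio was lower in all DMNT libraries than in any control library, a difference of -1.08 on the log2 scale (exact two-sided permutation test, n = 3 each, p = 0.1, the smallest possible). Summed over the 5 cytosolic genes, the ratio to MTHFD was 18.3, 14.98 and 14.6 in control and 13.2, 10.9 and 8.65 in DMNT libraries. The groups did not overlap here either, with log2 ratios of 3.99 ± 0.18 and 3.43 ± 0.30 (SD) and a difference of -0.56 (exact two-sided permutation test, n = 3 each, p = 0.1). By CPM, not divided by length, the groups did overlap, with DMNT replicate 1 at a ratio of 16.3 and control replicate 3 at 16.2, and the difference was -0.47 (exact two-sided permutation test, n = 3 each, p = 0.2). With SHMT left out the log2 ratio of the remaining 4 cytosolic genes was 3.42, 3.03 and 2.91 in control and 3.30, 2.995 and 2.24 in DMNT libraries. These overlapped, and the difference was -0.28 (exact two-sided permutation test, n = 3 each, p = 0.5). All of these ratios rest on 1 gene described as mitochondrial, and MTHFD and SHMT do different reactions. The 5 cytosolic genes include pairs of like description that may share reads, so they are not 5 separate enzymes. Gene ontology terms of LOC105384685, LOC105385063, LOC105387191 and LOC105382613 also include the mitochondrion. Their descriptions give no compartment, and they were put on neither side. SHMT is counted as cytosolic by its description alone, while its gene ontology terms include the mitochondrion. Its transcripts are merged, so a mitochondrial part of its level could not be separated.

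**Figure D3:**
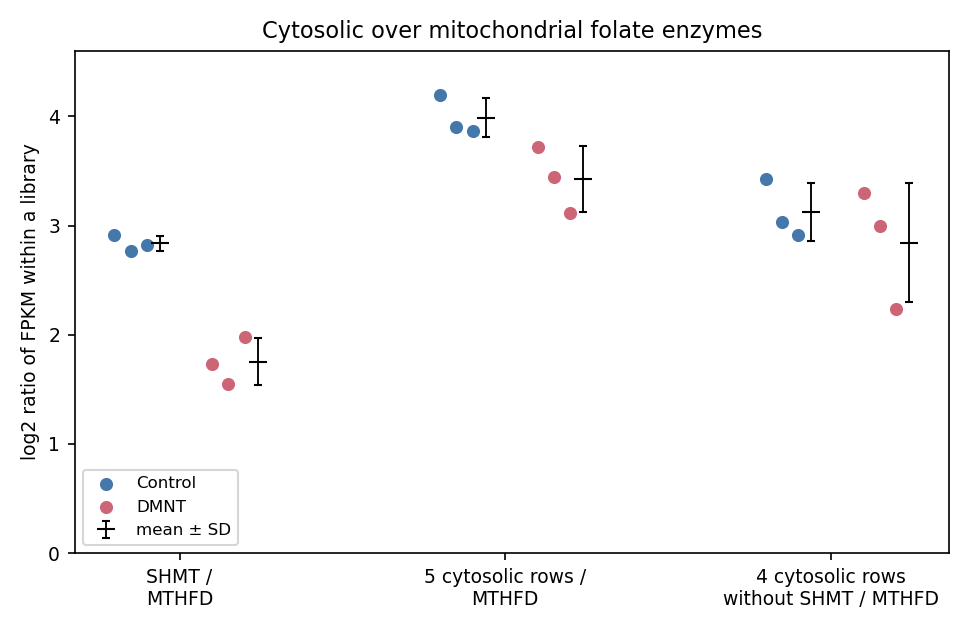
Log2 ratio of FPKM of cytosolic folate enzymes to mitochondrial MTHFD within each library (points in the order of replicates 1 to 3, blue for control and red for DMNT, bars for mean and SD of 3 libraries). The first 2 ratios, which hold SHMT, do not overlap between groups, and the third, without SHMT, does, with means of 3.12 and 2.84.

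More mitochondrial steps were found among the neighbouring genes, and 10 genes described as mitochondrial could be set beside the 5 cytosolic ones. Of the cytosolic genes 1 was called and all 5 log2 fold changes were below 0 (median -0.38). Of the mitochondrial genes 0 were called and 8 were below 0 (median -0.22, from -0.73 to 0.10). Both sets hold pairs of like description that may share reads, so neither is a count of separate enzymes. Over all genes 0.87% were called and 50.6% were below 0, so that 0 called of 10 is near the background, and the difference between the compartments was not tested. The glycine cleavage system is the mitochondrial route that charges THF with a carbon from glycine. Its glycine dehydrogenase (LOC105393928) read 19.7, 24.0 and 31.6 CPM in control and 13.7, 18.5 and 13.4 CPM in DMNT libraries, which did not overlap. The log2 fold change was -0.73 (standard error 0.23, 95% interval -1.25 to -0.20), short of the fold threshold, with an adjusted p of 0.9999 in edgeR's quasi-likelihood test. A second glycine dehydrogenase-like gene (LOC105393603) was at -0.25, the aminomethyltransferase of the system (LOC105393177) at -0.28 and its H protein (LOC105385768) at -0.23 on the log2 scale, all with overlapping groups. The mitochondrial folate transporter (LOC105385479) was at 37.8, 39.9 and 35.0 CPM in control and 24.3, 33.5 and 33.4 CPM in DMNT libraries, lower without overlap, and its log2 fold change was -0.30 (standard error 0.17). Sarcosine dehydrogenase-like (LOC105381895) was at -0.17, with overlapping groups. Above 0 were methionyl-tRNA formyltransferase (LOC105387923) at 0.05 and a folylpolyglutamate synthase-like gene (LOC105387023) at 0.10, also with overlapping groups.

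Thymidylate synthase spends methylene-THF to methylate deoxyuridylate and leaves dihydrofolate, which dihydrofolate reductase turns back into THF. The thymidylate synthase-like gene LOC105385063 read 16.6, 20.1 and 13.8 CPM in control and 19.2, 19.1 and 14.1 CPM in DMNT libraries, and its log2 fold change was 0.05 (standard error 0.21, 95% interval -0.42 to 0.53). LOC105387191, of the same description, read 6.505, 10.7 and 5.42 CPM in control and 9.72, 8.72 and 6.28 CPM in DMNT libraries, with 0.13 (standard error 0.29, 95% interval -0.54 to 0.80). Both genes were lowest in replicate 3 of each group, and the groups overlapped. Dihydrofolate reductase-like LOC105381301 read 36.5, 33.6 and 39.3 CPM in control and 33.1, 38.4 and 29.5 CPM in DMNT libraries. Its log2 fold change was -0.12 (standard error 0.15, 95% interval -0.47 to 0.24), an interval that does not reach the change of SHMT.

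Cyclo-ligases return 5-formyl-THF, a storage form, to the active pool. LOC105392008 read 11.9, 20.6 and 15.4 CPM in control and 13.5, 14.1 and 14.4 CPM in DMNT libraries, which lay inside the control range. Its log2 fold change was -0.19 (standard error 0.22). LOC105384685 read 12.7, 13.3 and 7.77 CPM in control and 7.99, 10.7 and 6.70 CPM in DMNT libraries, overlapping, with -0.41 (standard error 0.26, 95% interval -1.02 to 0.19). Without control replicate 3 this gene was at -0.62 and passed the threshold for p but not for fold. The MTHFS domain protein LOC105387032, whose domain is named for the same enzyme, read 144.6, 130.8 and 116.3 CPM in control and 160.0, 136.7 and 141.5 CPM in DMNT libraries. It overlapped between the groups, with 0.16 (standard error 0.14, 95% interval -0.15 to 0.48).

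Each of 4 enzymes is present under more than 1 gene with a like description, which may be copies of one gene in the assembly that share reads. For each of these enzymes 1 gene is missing from a more recent NCBI annotation (LOC105385063, LOC105390540, LOC105394963 and LOC105382613), and the remaining 10 of the 14 genes are present in it. The FPKM of LOC105394963 was 1.20 to 1.501 times that of LOC105393550 over the 6 libraries, and that of LOC105387191 was 0.385 to 0.522 times that of LOC105385063, so these pairs kept a like ratio in every library. The ratio of LOC105382326 to LOC105390540 ran from 3.40 to 8.66, and that of LOC105384685 to LOC105392008 from 0.647 to 1.49. With counts of such genes summed, the log2 fold change was 0.08 (standard error 0.22) for thymidylate synthase, -0.45 (standard error 0.29) for 10-formyltetrahydrofolate dehydrogenase, -0.13 (standard error 0.24) for C-1-tetrahydrofolate synthase and -0.28 (standard error 0.19) for the cyclo-ligases. None passed the thresholds, and the values of a single gene of a pair are uncertain to that extent.

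The neighbouring steps were counted from 7 lists of words in the descriptions. Of their 112 tested genes, 0 passed the study's thresholds in edgeR and 0 in DESeq2, beside 0.87% of all genes in either direction, and 4 were under 0.05 before adjustment in edgeR, beside 3.43%. All 4 were lower with DMNT, and the count was 16, all lower, without DMNT replicate 2, beside 4.08% of all genes in that fit, and 2 to 8 without any other single library. In serine and glycine supply all 8 tested genes were below 0, with a median log2 fold change of -0.27, which was -0.16 without DMNT replicate 1 and -0.50 without DMNT replicate 2. Besides glycine dehydrogenase, the smallest p-values there were those of phosphoserine aminotransferase (LOC105382286), on the route that makes serine, at -0.39 (standard error 0.17) and phosphoserine phosphatase (LOC105390027) at -0.31 (standard error 0.20), both with overlapping groups.

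Purine synthesis, which takes formyl groups from THF, had 16 of 20 genes below 0 and a median of -0.30, which was -0.13 without DMNT replicate 1 and -0.44 without DMNT replicate 3. The libraries of 5 of the 20 did not overlap between groups, all lower with DMNT, where 4.12% of all genes were. Amidophosphoribosyltransferase, the first committed step of the pathway, was listed under LOC105396439 at 7.62, 5.82 and 5.01 CPM in control and 1.93, 3.44 and 4.22 CPM in DMNT libraries. Its log2 fold change was -0.95 (standard error 0.31), just under the fold threshold. A second gene of that description, LOC105398645, was at -0.69 (standard error 0.28), and phosphoribosylformylglycinamidine synthase (LOC105393606) at -0.48 (standard error 0.21). These 3 genes were lowest in DMNT replicate 1, as SHMT was, and those with the same description may share reads. The rest of the 5 without overlap were bifunctional purine synthesis loci described as PURH-like, LOC105393884 and a locus that holds LOC105386074. These may share reads as well, so the 5 are not 5 separate enzymes.

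In the methionine cycle 6 of 9 genes were below 0, with a median of -0.13. Without control replicate 3 this median came to 0.08, without DMNT replicate 1 to -0.06, and it lay between -0.26 and -0.08 without any other single library. Glycine N-methyltransferase (LOC105387574), which in mammals is inhibited by methyl-THF, read 106.9, 74.9 and 77.5 CPM in control and 39.3, 65.7 and 66.3 CPM in DMNT libraries. These did not overlap, and the log2 fold change was -0.60 (standard error 0.24). Cystathionine gamma-lyase (LOC105396734), of cysteine synthesis, was at -0.45 (standard error 0.22) and homocysteine S-methyltransferase 1-like (LOC105386149), which remakes methionine, at 0.29 (standard error 0.23), with overlapping groups.

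All 6 genes of pteridine synthesis were below 0 (median -0.25), beside 50.6% of all genes. With 1 library dropped the median ran from -0.35 (DMNT replicate 2) to -0.23 (DMNT replicate 3). The number below 0 came to 5 when the dropped library was DMNT replicate 3 or either of control replicates 2 and 3. GTP cyclohydrolase in animals opens the route to tetrahydrobiopterin. It was at -0.72 (standard error 0.32) under LOC105390169 and at -0.58 (standard error 0.27) under LOC105393140. Both genes have a like description and may share reads. Dihydropteridine reductase-like (LOC105383939) was at -0.30 (standard error 0.13). It was the only 1 of the 6 without overlap, lower with DMNT, where 4.12% of all genes were.

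Thymidylate is used in DNA synthesis. Deoxynucleotide supply had 6 of 10 tested genes below 0 (median -0.10), with CTP synthase-like (LOC105381971) at -0.32, CTP synthase (LOC105391210) at -0.34 and deoxycytidylate deaminase-like (LOC105383787) at 0.24. Leaving out 1 library moved that median between -0.22 (without control replicate 3) and 0.10 (without control replicate 2). DNA replication had 20 of 43 below 0, and its median of 0.01 was -0.17 without DMNT replicate 1 and 0.06 without DMNT replicate 3. Replication factor C subunit 2-like was listed at -0.51 (standard error 0.30, LOC105395505) and at 1.46 (standard error 0.96, LOC105396459), the latter at under 1 CPM in all libraries, and the licensing factor Mcm7-like (LOC105387784) at -0.49 (standard error 0.32). Folate uptake and storage had 10 of 16 below 0 (median -0.05, from -0.11 without DMNT replicate 3 to -0.00033 without DMNT replicate 1), with a proton-coupled folate transporter-like gene (LOC105392573) at -0.45 (standard error 0.29) and a folylpolyglutamate synthase (LOC105398639), which adds the glutamate tail that keeps folate in the cell, at -0.21 (standard error 0.22).

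**Figure D4:**
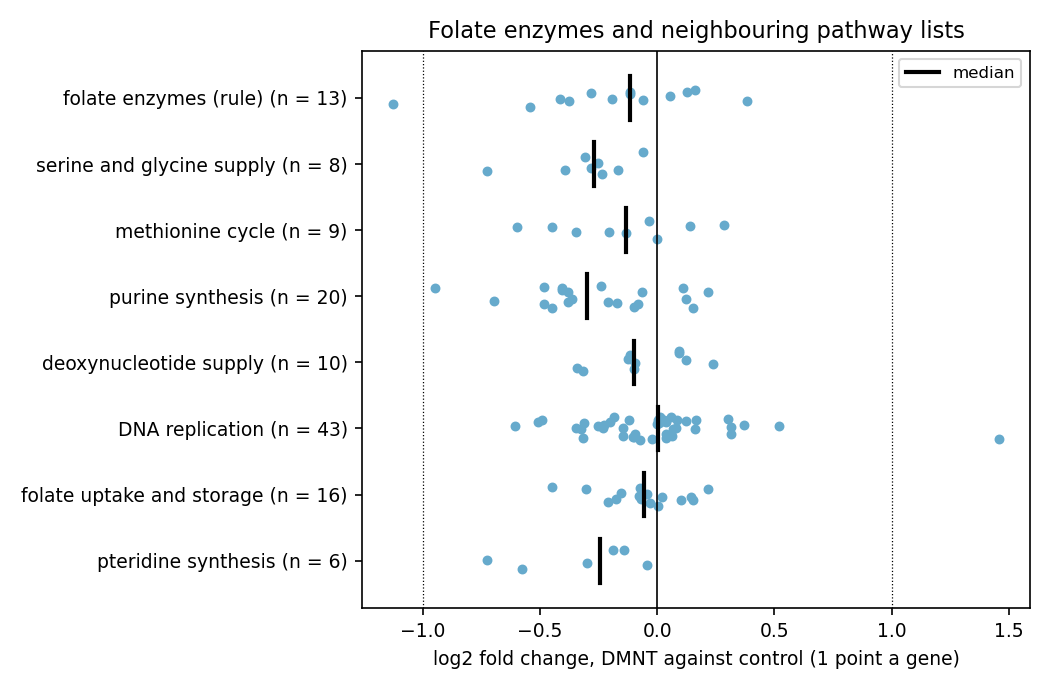
Log2 fold change, DMNT against control, of every tested gene (1 point each) in the folate set and in 7 lists of neighbouring steps, with the median of each as a bar; dotted lines mark a log2 fold change of 1 in either direction. SHMT at -1.13 is the only point below -1, and the point at 1.46 is LOC105396459, at under 1 CPM in all libraries.

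The authors' KEGG annotation gives 63 genes to the one carbon pool by folate, but 43 of them are described only as uncharacterized. Of those 43, 14 carry KO entry K10848 and 26 carry no KO entry, and of the 20 tested 0 were called (median -0.13). Of the 39 genes of the pathway that were tested, 1 was lower past the thresholds, SHMT, beside 0.503% of all genes, 0 were higher, beside 0.367%, and 26 were below 0, beside 50.6%, with a median of -0.13, which was -0.02 without DMNT replicate 1, where SHMT was not called, and -0.22 without DMNT replicate 2. Outside the folate set 7 described genes belong to it, of which 0 were called. They include PURH-like, the bifunctional enzyme that adds the second formyl group to the purine ring, at -0.40 (standard error 0.20) under LOC105393884 and at -0.45 (standard error 0.20) in a locus merged from LOC105386074;LOC105386076, both without overlap between the groups.

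The genes whose level followed SHMT most closely were taken from 5101 described genes whose FPKM averaged 5 or more, by Pearson's r of log2 CPM over the 6 libraries, which share the treatment split and the library scaling. They were senecionine N-oxygenase-like LOC105393619 (r = 0.99), of a family of flavin monooxygenases, leukocyte elastase inhibitor-like LOC105390551 (r = 0.99), a serpin, and the lipoamide acyltransferase of branched-chain keto acid breakdown, LOC105389846 (r = 0.97). Next came 3-ketodihydrosphingosine reductase LOC105392538 (r = 0.97), of sphingolipid synthesis, and interferon regulatory factor 2-binding protein 2, LOC105392331 (r = 0.96). In this order their log2 fold changes were -0.64, -0.34, -0.75, -0.11 and -0.16, beside -1.13 for SHMT. A high r thus went with changes of unlike size. Within the folate set, r with SHMT ran from -0.62 for the MTHFS domain protein LOC105387032 to 0.57 for C-1-tetrahydrofolate synthase LOC105382326. The 5 genes above were picked for the highest r, so a comparison with them says nothing about the folate set.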

How the data were processed

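Poly(A) RNA libraries with dUTP strand marking were sequenced on an Illumina instrument. By the methods, the authors used cutadapt for cleaning, Hisat for alignment to the species' NCBI reference, and StringTie for assembling and quantifying genes. Versions, the counting program and its use of strand are not given in the sources used here. Overlapping genes can therefore share reads. The authors deposited whole-number counts without normalization, and FPKM that they scaled by exon length and mapped reads. Groups were taken from the sample titles.

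The members, the lists and the tests were chosen with earlier results of these data known. The members are the genes whose description holds serine hydroxymethyltransferase, thymidylate synthase, dihydrofolate reductase or tetrahydrofolate, and compartments were read from the description. Of the tested members, 1 is counted in the totals but is not reported here by itself. Named besides are in each list the 3 genes of smallest p, any list gene past the thresholds, the mitochondrial genes of the lists, and the 5 genes closest to SHMT. The mitochondrial genes were named after their values were seen. The planned ratio of cytosolic to mitochondrial SHMT could not be formed, as no gene is described as the latter, and MTHFD was used in its place after seeing the data.

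Counts of 17709 of 21946 genes (mean FPKM of at least 0.5) received TMM scaling and edgeR 4.0.16's quasi-likelihood test (glmQLFit, glmQLFTest, R 4.3.3) without covariates. The step was tested on simulated data. Standard errors are the absolute log2 fold change over the square root of F, and intervals use the test's degrees of freedom. P-values were adjusted by Benjamini-Hochberg over all genes tested. Calls use the thresholds of the study, 1 for the log2 fold change and 0.05 for the unadjusted p. Ratios used FPKM with no pseudocount. All 15 pairs of libraries differed beyond sampling noise (mean chi-square per gene 51.7 or more, against 1 for one library sampled again), so none was taken for a copy. The coefficient of variation between libraries was 29.0%. Alternatives were median-ratio size factors, other filters, DESeq2 1.42.0, limma 3.58.1 on log2(FPKM + 0.1) and log2(FPKM + 1), a replicate block, and leaving out each library. Symbols were matched to the newer annotation (10548 of 17515), of another build, for names only.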

Additional observations from a re-analysis of the deposited data

How the results depend on the processing

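SHMT kept its direction under all 14 alternatives run, and its log2 fold change ran from -1.39 to -0.93 over fits that left out 1 library, the last without DMNT replicate 1, where 0 instead of 1 folate enzyme was called (range 0 to 1). Over those fits the value crossed 0 for LOC105382326 (-0.30 to 0.15), LOC105393725 (-0.18 to 0.12), LOC105385063 (-0.072 to 0.20), LOC105387191 (-0.061 to 0.46) and LOC105392008 (-0.36 to 0.031). The 154 genes called became 240 with no filter, 84 with a mean FPKM of at least 2, 84 with limma on log2(FPKM + 1), and 162 to 271 without 1 library. The split of 89 lower and 65 higher became 62 and 22 with limma on log2(FPKM + 1) and 79 and 115 without control replicate 1. Called genes of the neighbouring lists and of the KEGG pathway, with the folate set left aside, were 0 at first. With no filter they became 2, LOC105387823 and LOC105388564, both uncharacterized genes of the KEGG pathway and both higher with DMNT. They were 1 with limma on log2(FPKM + 0.1) (LOC105396439) and 0 to 2 without 1 library. LOC105396439 was called without control replicate 3 and without DMNT replicate 3, and LOC105395649 and LOC105390169 without DMNT replicate 2. The summed cytosolic to mitochondrial log2 ratio differed by -0.28 with SHMT left out, an alternative chosen after seeing the data. A gene called only in some of these fits was counted at the same thresholds, and the cause was not tested. Deviations of same-numbered libraries correlated only weakly (0.06, 0.04 and 0.06), though each was closest to its own number. Whether replicates were paired is not stated, and these values do not settle it. With a replicate block SHMT was at -1.17, 178 genes were called and 0 had an adjusted p under 0.05 in edgeR, against 2 without it. In that fit 3 folate enzymes instead of 1 had an unadjusted p under 0.05 (beside 5.07% of all genes), SHMT with LOC105393550 (-0.58) and LOC105394963 (-0.41), the last 2 under the fold threshold. The planned ratio of cytosolic to mitochondrial SHMT was not run. With 3 libraries per group the permutation test cannot go below 0.1.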
